A study of Homo sapiens with 6 samples.

Results

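Matrix metalloproteinases (MMP), the membrane-bound ADAM proteases, the secreted ADAMTS proteases and their inhibitors, the TIMPs, were examined as a group in PC3, an established human prostate cancer cell line that the labels call aggressive and androgen negative. A gene was counted as a member where its symbol is MMP, ADAM, ADAMTS or TIMP followed by a digit and a probe set names it and no other gene. This gave 66 genes of 18376 tested: 22 MMP, 23 ADAM, 17 ADAMTS and 4 TIMP genes, of which 62 are protein-coding and 4 are ADAM pseudogenes. RNA was measured on 6 whole-transcript Affymetrix arrays, 3 from PC3 cells with ectopic expression of miR-34c and 3 from PC3 cells with a scramble mimic as the control. The series title puts the aim as finding targets of miR-34c, and each sample label of the first group names miR-34c, whereas the series design text names miR-205. Here the sample labels are followed. The sources used here state no dose and no time, nor do they say if replicates were grown as separate cultures, and p therefore reflects no more than how far these arrays, few in number, differ from each other, which may be technical. All values come from 1 cell line.

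The proteases of this group have a zinc-dependent catalytic domain, kept inactive by a propeptide until it is removed, though several ADAMs lack a working active site. MMPs cleave collagens, other matrix proteins and cell surface proteins, ADAMs mostly shed the outer part of membrane proteins such as growth factors, receptors and adhesion molecules, and ADAMTS proteases trim proteoglycans, procollagens and other matrix proteins. TIMPs block the active site. In prostate and other carcinomas these proteins are known for their part in invasion and in growth factor release, and several MMP promoters are textbook targets of AP-1, the FOS and JUN dimer.

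A microRNA pairs with messenger RNAs mainly through its seed, bases 2 to 8. The labels do not say which arm of miR-34c was expressed, hsa-miR-34c-5p or hsa-miR-34c-3p. The mature sequences below, from RefSeq (GRCh38.p14) and with the seed in capitals, are shown because they belong to the microRNAs in question: an arm of miR-34c, the 5p arms of its family members miR-34a and miR-34b, and miR-205, which the design text names. The 4 seeds differ from each other, though those of miR-34a-5p and miR-34b-5p share the letters GGCAGU.
hsa-miR-34c-3p: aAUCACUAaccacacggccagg
hsa-miR-34a-5p: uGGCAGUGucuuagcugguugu
hsa-miR-34b-5p: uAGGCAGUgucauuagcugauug
hsa-miR-205-5p: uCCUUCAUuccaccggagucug

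The deposited values are log2 values from which a reference was subtracted for each probe set. They show differences between arrays but not how abundant a messenger RNA is, so levels of different genes cannot be compared, and neither the PC3 label nor expression of a member can be checked from its level. In a bulk sample, fewer cells that express a gene and less RNA per cell cannot be told apart. Differences were tested with limma across all 18376 genes, and p was adjusted by Benjamini-Hochberg, with 0.05 as the threshold. A change is the miR-34c mean minus the scramble mean on the log2 scale.

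Of the 66 members 10 passed the test, 6 lower and 4 higher with miR-34c. MMP1, ADAM19, ADAM12, ADAM20, ADAM10 and the pseudogene ADAM5 fell, and ADAMTS1, ADAM8, TIMP1 and ADAM11 rose. The share that passed, 15.2%, lay next to that of all genes (15.7% in either direction, 8.01% lower and 7.67% higher). The median change of the members was -0.07, against -0.03 over all genes, and 51 of the 66 changed by less than 1.2-fold. The 3 arrays of one group lay wholly on one side of the other 3 in 25 members (37.9%), against 34.2% of all genes. The 2 largest changes were falls: MMP1 and ADAM19 were the members that passed with a change above 2-fold. With ADAM20 they were the 3 that passed with a change of at least 1.5-fold, as did 3.83% of all genes.

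**Figure D1:**
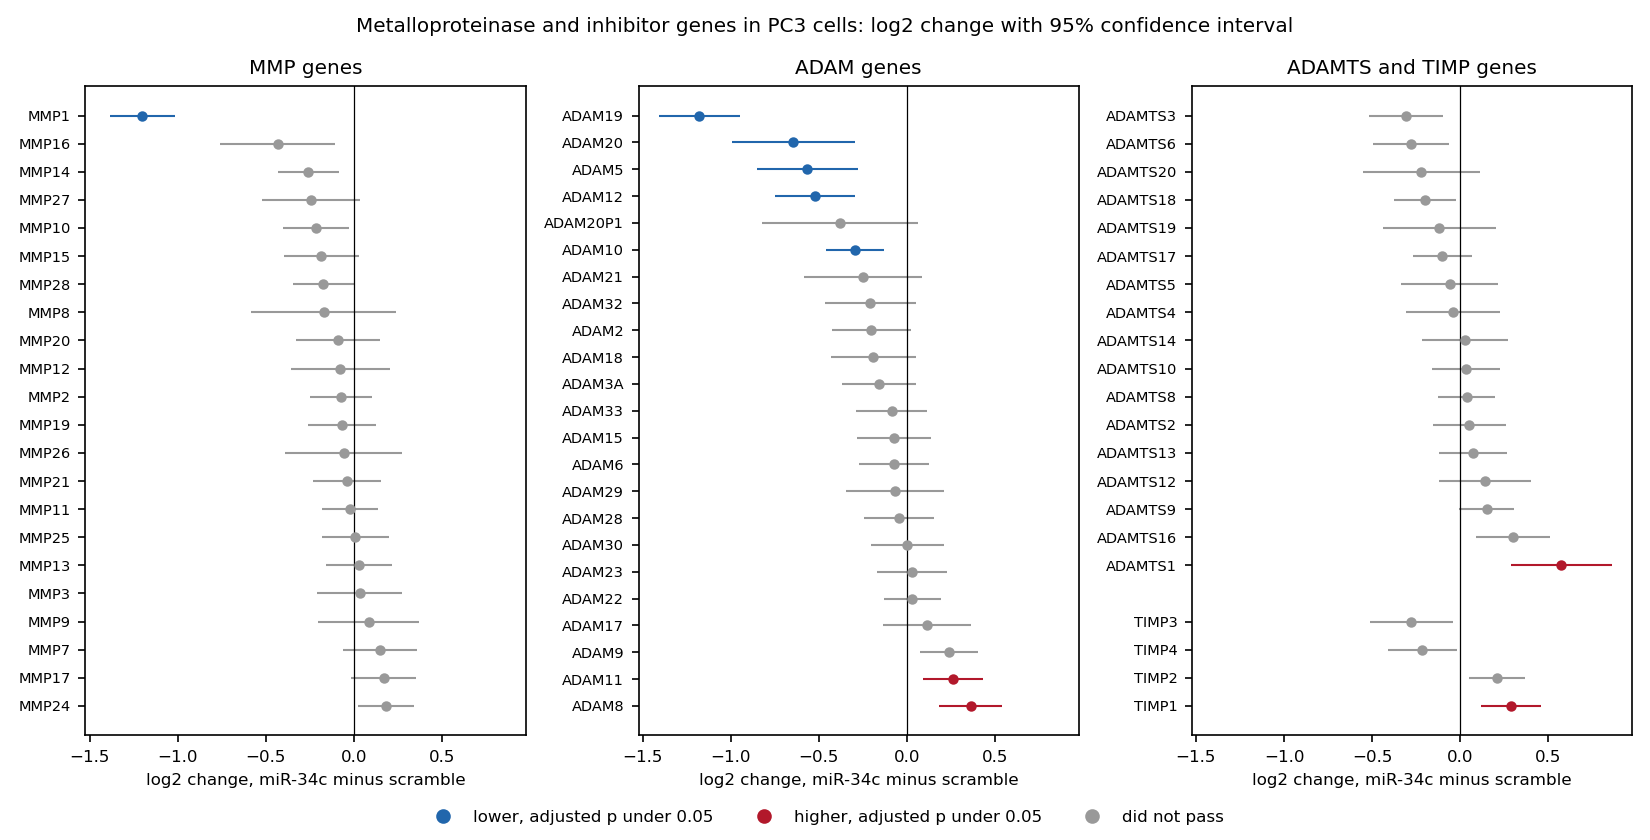
Log2 change (miR-34c minus scramble, horizontal axis) of each of the 66 member genes with its 95% confidence interval, by family; blue and red points passed the test as lower and higher. MMP1 (-1.20) and ADAM19 (-1.18) lie far to the left of the other members, whose changes run from -0.65 (ADAM20) to 0.57 (ADAMTS1).

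The counts depended on single arrays and on scaling, as did the share of all genes that passed. Without miR-34c replicate 2, 3 members were lower and 0 higher (14 and 6 at an unadjusted limma p under 0.05). Without miR-34c replicate 3, 4 were lower and 0 higher (12 and 8 unadjusted). In these fits 9.16% and 9.01% of all genes passed, in place of 15.7%. The count of rises was 2 without each of miR-34c replicate 1, scramble replicate 1 and scramble replicate 3. There 13.2%, 10.7% and 13.1% of all genes passed. With each array centred again on its median 7 members were lower and 7 higher, while 17.7% of all genes passed. With quantile normalization again 6 were lower and 7 higher, so 53.8% of the calls were rises in place of 40.0%. Of all genes 18.2% then passed. MMP1, ADAM19 and ADAM12 passed, as lower, under each of the 15 other settings.

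**Figure D2:**
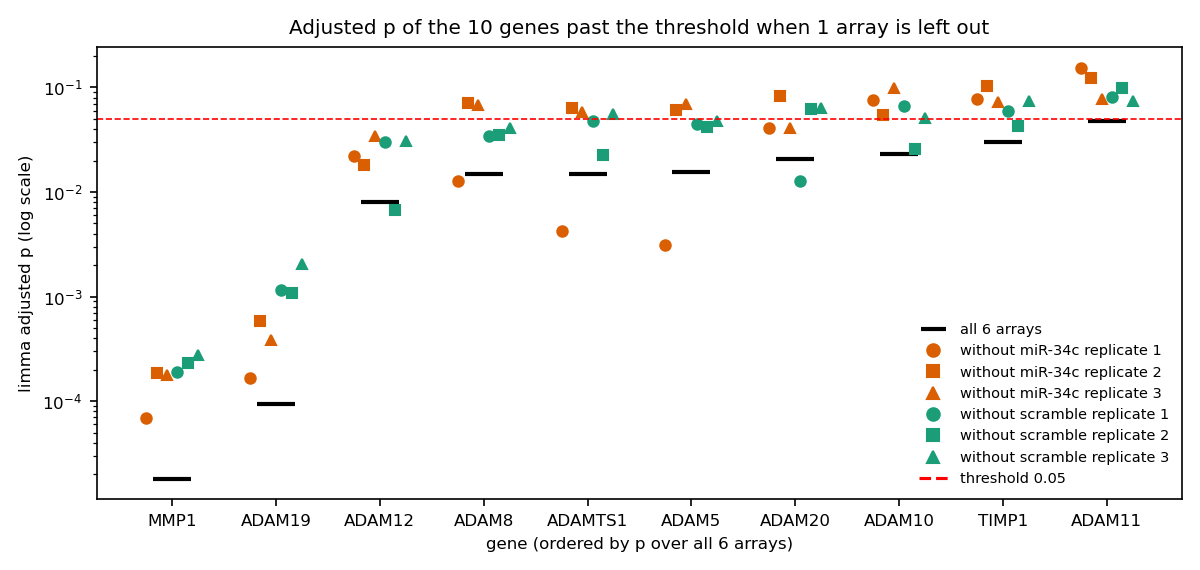
Limma adjusted p (vertical axis, log scale) of the 10 members that passed, with all 6 arrays (black bars) and with each array left out in turn (coloured symbols); the dashed line is the threshold of 0.05. MMP1, ADAM19 and ADAM12 stay below the line for every array left out, with values up to 0.000278, 0.00205 and 0.0343, while ADAM11 lies above it each time.

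MMP1, interstitial collagenase, cuts the triple helix of fibrillar collagens. Its centred log2 values were -0.53, -0.41 and -0.59 on the miR-34c arrays and 0.70, 0.72 and 0.64 on the scramble arrays. All 3 miR-34c arrays were lower, with a gap of 1.06 between the closest arrays of the groups. The change was -1.20 ± 0.08 (SE, n = 3 per group; 95% confidence interval -1.38 to -1.02), that is 0.435 of the scramble level (limma adjusted p = 1.8e-05), with a range from -1.25 to -1.16 over the fits that left out 1 array.

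The other collagenases did not pass. MMP8, the neutrophil collagenase, had a change of -0.17 ± 0.18 (SE) and MMP13, collagenase-3, one of 0.03 ± 0.08. The gelatinases cleave denatured collagen and basement membrane collagen. MMP2 had values of -0.041, -0.014 and -0.096 with miR-34c and -0.021, 0.12 and -0.027 with scramble, so the groups overlapped (change -0.07, 95% confidence interval -0.25 to 0.10). MMP9 ran from -0.30 to -0.062 with miR-34c and from -0.55 to -0.077 with scramble. Scramble replicate 2 held its lowest value, and the change was 0.08 (95% confidence interval -0.21 to 0.37), or -0.07 without that array. Of the stromelysins, MMP3, which cleaves proteoglycans and activates other MMPs, had a change of 0.03, and MMP11 one of -0.02. Leaving out replicate 1 of miR-34c or of scramble turned the change of MMP3 to -0.03 or -0.04. The matrilysins MMP7 and MMP26, small MMPs without the hemopexin domain, had changes of 0.15 and -0.06.

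The membrane-type MMPs act at the cell surface. MMP14, which activates pro-MMP2, had values of -0.52, -0.46 and -0.52 with miR-34c and -0.29, -0.13 and -0.30 with scramble. All 3 miR-34c arrays were lower, but the change of -0.26 ± 0.08 (SE) lay just outside the threshold (limma adjusted p = 0.0505). It passed with arrays centred on their median, with quantile normalization again, with array weights and with the mean of probe sets. MMP14 has 1 probe set, so in the last setting its own values were unchanged (limma adjusted p = 0.04999). MMP16 was measured by 2 probe sets. The one used gave -0.43 ± 0.15 (SE, limma adjusted p = 0.0745), with scramble replicate 1 (0.014) next to the highest miR-34c array (-0.014), and passed without scramble replicate 1 (-0.61). The other gave -0.74 ± 0.11 (SE, adjusted p = 0.00557 over all probe sets), so MMP16 did not pass by the probe set used but did by the other. The changes of MMP15, MMP17, MMP24 and MMP25 lay between -0.19 (MMP15) and 0.18 (MMP24), and none passed. In all, 1 of 22 MMP genes fell and 0 rose in limma, so 4.55% passed where 15.7% of all genes did. At an unadjusted limma p under 0.05, 5 were lower and 1 higher, against 2982 lower and 2379 higher of all 18376 genes. The groups did not overlap in 27.3% of the MMP genes, against 34.2% of all genes. Of the 22 MMP genes, 20 (90.9%) changed by less than 1.2-fold, against 77.4% of all genes. A probe set shared by a pair of MMP symbols, and so outside this count, rose by 0.40 ± 0.08 (SE; limma adjusted p = 0.0169 over all probe sets).

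**Figure D3:**
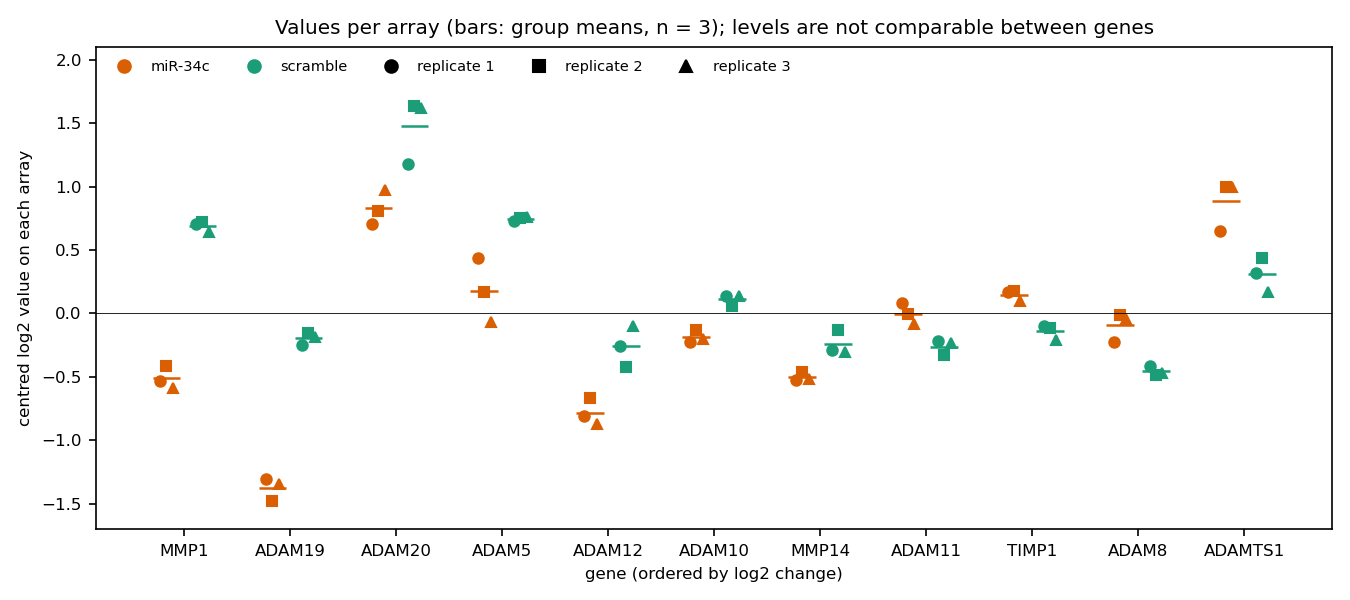
Centred log2 value (vertical axis) on each of the 6 arrays for the 10 members that passed and MMP14, with bars at the group means (n = 3); values compare arrays within a gene, not genes. The groups do not overlap in any of these 11 genes, against 34.2% of all genes, but 10 of them were picked because they passed on these same arrays. The gap is widest in MMP1 (1.06) and ADAM19 (1.05).

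In the gene order of RefSeq, MMP1 lies in a run of 9 measured MMP genes, MMP7, MMP20, MMP27, MMP8, MMP10, MMP1, MMP3, MMP12 and MMP13. MMP1 was the member of this run that passed. Next to it, MMP10, stromelysin-2, had values of -0.17, 0.017 and -0.044 with miR-34c and 0.18, 0.18 and 0.09 with scramble. Its miR-34c arrays were all lower, but the change was -0.22 ± 0.08 (SE) and did not pass (limma adjusted p = 0.114). On the other side MMP3 had a change of 0.03 ± 0.11 (95% confidence interval -0.21 to 0.28). The other 6 ran from -0.24 (MMP27) to 0.15 (MMP7).

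The promoter window of MMP10, from 250 bases before to 50 after its annotated start, is shown because MMP10 adjoins MMP1 and holds the letters of an AP-1 element (TGANTCA, 67 bases before the start) and of a TATA box (TATAAA, 31 bases before), both in capitals. It lies at chr11:102780579-102780878 on the minus strand (RefSeq, GRCh38.p14).
MMP10: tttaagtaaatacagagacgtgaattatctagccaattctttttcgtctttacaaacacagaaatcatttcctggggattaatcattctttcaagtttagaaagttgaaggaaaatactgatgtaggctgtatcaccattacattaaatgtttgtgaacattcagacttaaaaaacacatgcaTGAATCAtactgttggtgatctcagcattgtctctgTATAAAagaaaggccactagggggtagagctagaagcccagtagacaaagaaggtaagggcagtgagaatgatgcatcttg
The RefSeq promoter table held windows for 37 of the 66 members. Searched on both strands, TGANTCA was found in those of 4 members, MMP10, MMP7, MMP20 and ADAMTS12, or 10.5% of the 38 windows, against 7.71% of 35116 windows of all genes. None of these 4 genes passed the test, where 15.7% of all genes did, and 4 genes are too few to tell these shares apart. The windows covered 6 of the 10 members that passed: ADAM19, ADAM12, ADAM20, ADAM10, ADAM8 and TIMP1. TATAAA was found in 21.1% of the member windows and 11.5% of all. The core of the interferon-stimulated response element was found in 0 of the member windows and 3.57% of all.

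**Figure D4:**
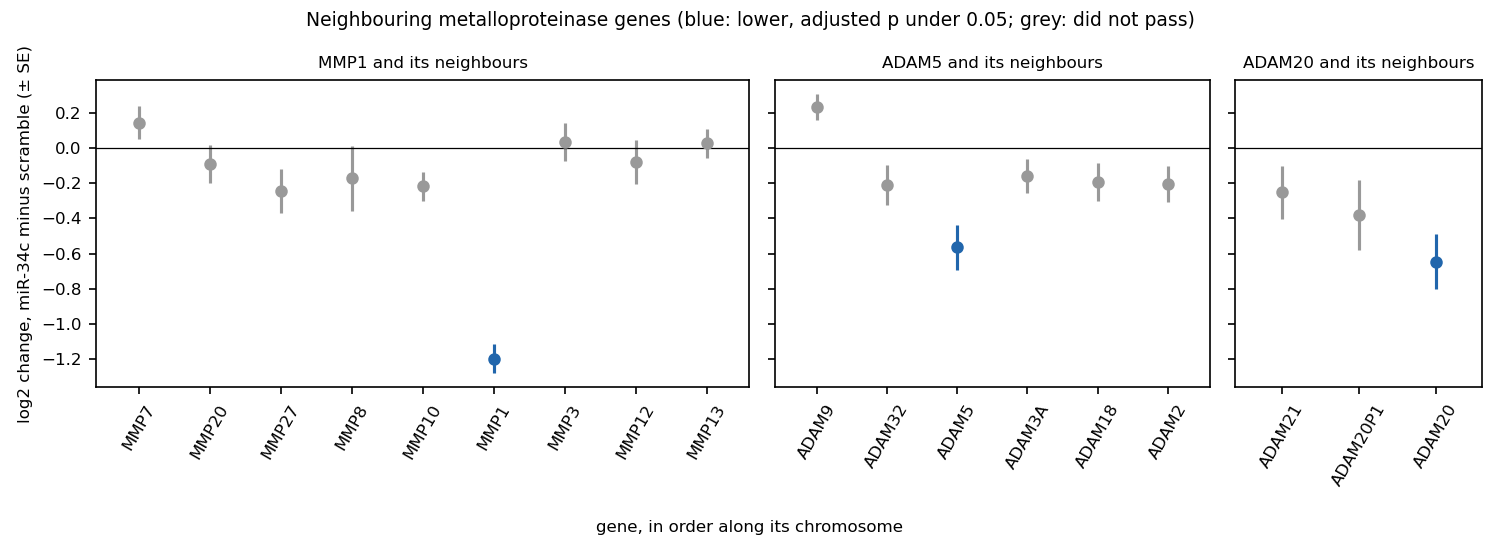
Log2 change with its SE (vertical axis) of member genes that adjoin each other among the measured genes, in order along the chromosome, around MMP1, ADAM5 and ADAM20. MMP1 (-1.20) is the gene of its run of 9 that passed; ADAM5 (-0.57) and ADAM20 (-0.65) are the lowest of their runs.

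ADAM19, also called meltrin beta, is a membrane metalloproteinase that can shed neuregulins. Its values were -1.30, -1.48 and -1.35 with miR-34c and -0.25, -0.15 and -0.19 with scramble. The arrays of each group lay close together and 1.05 apart between the groups. The change was -1.18 ± 0.10 (SE; 95% confidence interval -1.41 to -0.95), or 0.442 of the scramble level (limma adjusted p = 9.46e-05). Its promoter window, at chr5:157575726-157576025 on the minus strand (RefSeq, GRCh38.p14), is shown as that of the member with the largest fall among those in the promoter table. It is 75.7% G and C and holds neither the AP-1 nor the TATA letters above, nor GGGCGG, the GC box that SP1 binds.
ADAM19: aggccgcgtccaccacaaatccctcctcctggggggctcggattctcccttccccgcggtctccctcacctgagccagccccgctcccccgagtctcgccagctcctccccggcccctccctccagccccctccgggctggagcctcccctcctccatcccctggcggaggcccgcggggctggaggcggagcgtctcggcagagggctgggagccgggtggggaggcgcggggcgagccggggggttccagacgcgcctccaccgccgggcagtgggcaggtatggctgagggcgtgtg

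ADAM12, meltrin alpha, is the close relative of ADAM19 and sheds heparin-binding EGF-like growth factor. Its values were -0.81, -0.67 and -0.87 with miR-34c and -0.26, -0.42 and -0.10 with scramble. The miR-34c arrays were all lower, though scramble replicate 2 came within 0.246 of the nearest one. The change was -0.52 ± 0.10 (SE), or 0.696 of the scramble level (limma adjusted p = 0.00806). Both meltrins thus fell, ADAM19 by more.

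Of the widely expressed sheddases ADAM10 passed and ADAM17 did not. ADAM10, which cleaves Notch receptors, the amyloid precursor and cadherins, had values of -0.23, -0.13 and -0.20 with miR-34c and 0.13, 0.061 and 0.14 with scramble. The groups did not overlap, and the change was a small one, -0.30 ± 0.07 (SE), or 0.814 of the scramble level (limma adjusted p = 0.0231). It did not pass without any 1 of the miR-34c replicates 1 to 3 (adjusted p = 0.0761, 0.0545 and 0.0984), scramble replicate 1 (0.0668) or scramble replicate 3 (0.0516). ADAM17, which releases TNF and EGF receptor ligands, had values of -0.018, 0.018 and 0.078 with miR-34c and -0.11, 0.15 and -0.31 with scramble. The scramble arrays lay on both sides of the miR-34c arrays, and the change was 0.11 ± 0.11 (SE; 95% confidence interval -0.14 to 0.36). Whether the changes of ADAM10 and ADAM17 differ was not tested.
ADAM10: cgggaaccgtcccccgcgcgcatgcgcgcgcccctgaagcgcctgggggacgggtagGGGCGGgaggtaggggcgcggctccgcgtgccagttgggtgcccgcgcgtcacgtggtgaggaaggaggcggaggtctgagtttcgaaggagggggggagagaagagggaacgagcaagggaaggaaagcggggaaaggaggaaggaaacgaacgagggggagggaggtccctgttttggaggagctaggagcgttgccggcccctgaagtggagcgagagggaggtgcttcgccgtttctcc
The window of ADAM10 (chr15:58749658-58749957, minus strand, RefSeq, GRCh38.p14), with a GC box in capitals 193 bases before the start, is shown as that of the sheddase that passed. GC boxes were in 63.2% of the member windows and 45% of all windows, and among the 6 members with a window that passed the test 4 held them: ADAM10, ADAM12, ADAM8 and TIMP1.

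ADAM8, a sheddase known from leukocytes and from carcinoma cells, rose. Its values were -0.23, -0.0087 and -0.046 with miR-34c and -0.41, -0.48 and -0.47 with scramble. All 3 miR-34c arrays were higher, with replicate 1 closest to the controls. The change was 0.36 ± 0.08 (SE), or 1.28-fold (limma adjusted p = 0.0147), a call lost when miR-34c replicate 2 (adjusted p = 0.0703) or replicate 3 (0.0675) was left out. ADAM9, another widely expressed sheddase, had a change of 0.24 ± 0.07 (SE, adjusted p = 0.0573) with groups that did not overlap, and passed with arrays centred on their median, quantile normalization again, array weights or a robust prior, and without scramble replicate 2. TM2D2, which overlaps ADAM9 in the annotation, rose by 0.38 (adjusted p = 0.0124), and its part in the ADAM9 value was not tested. ADAM15, ADAM28 and ADAM33, which complete the proteolytic ADAMs outside the testis group, had changes of -0.08, -0.04 and -0.09.

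ADAMs of the testis and sperm made up much of the rest of the family. ADAM20, a testis protease, had values of 0.71, 0.81 and 0.97 with miR-34c and 1.18, 1.64 and 1.62 with scramble. All 3 miR-34c arrays were lower, and scramble replicate 1 was the nearest control. The change was -0.65 ± 0.16 (SE), or 0.639 of the scramble level (limma adjusted p = 0.0206). Leaving out miR-34c replicate 2 (adjusted p = 0.0822), scramble replicate 2 (0.0624) or scramble replicate 3 (0.064) ended the call. It was also lost with quantile normalization again, with all probe sets tested and with protein-coding genes alone. Its neighbours ADAM20P1, a pseudogene, and ADAM21 had changes of -0.38 ± 0.20 and -0.25 ± 0.15 (SE) and did not pass. ADAM20P1 passed without miR-34c replicate 1 (-0.59). A pseudogene can share sequence with its parent gene, so probes for ADAM20 and ADAM20P1 may not tell their transcripts apart.

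The pseudogene ADAM5 had values of 0.44, 0.17 and -0.068 with miR-34c and 0.72, 0.75 and 0.76 with scramble. The scramble arrays agreed closely, with an SD of 0.017, whereas the miR-34c arrays had an SD of 0.252. The change was -0.57 ± 0.13 (SE, limma adjusted p = 0.0155), and leaving out miR-34c replicate 2 (adjusted p = 0.0608) or replicate 3 (0.0689) ended the call. In the gene order it stands in a run with ADAM9, ADAM32, ADAM3A, ADAM18 and ADAM2. Other than ADAM9, its neighbours had changes between -0.21 (ADAM32) and -0.16 (ADAM3A), and none passed.

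The ADAMs that lack a working active site act in adhesion. ADAM11, one of these and a neuronal protein, had values of 0.083, -0.0075 and -0.081 with miR-34c and -0.22, -0.33 and -0.24 with scramble. The groups did not overlap, and the change of 0.26 ± 0.08 (SE) passed narrowly (limma adjusted p = 0.0477). It did not pass when any 1 array was left out (adjusted p from 0.0747 to 0.155), and passed with 4 of the 15 other settings. With all 6 arrays it was also lost with the replicate block, either other eBayes prior, array weights or all probe sets tested. Its relatives ADAM22 and ADAM23 had changes of 0.03 each. In all 5 of 23 ADAM genes fell and 2 rose, that is 30.4% called where 15.7% of all genes were. The groups did not overlap in 34.8% of the ADAM genes, against 34.2% of all genes.

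Of the ADAMTS proteases 1 of 17 rose and 0 fell in limma, 5.88% called against 15.7% of all genes. At an unadjusted limma p under 0.05, 3 were lower and 2 higher, against 2982 lower and 2379 higher of all 18376 genes. The groups did not overlap in 41.2% of the ADAMTS genes, against 34.2% of all genes. ADAMTS1, which cleaves the proteoglycans aggrecan and versican, had values of 0.65, 1.00 and 1.00 with miR-34c and 0.32, 0.44 and 0.17 with scramble. All 3 miR-34c arrays were higher, and replicate 1 was the lowest of them. The change was 0.57 ± 0.13 (SE), or 1.49-fold (limma adjusted p = 0.0148). The call was lost on leaving out any 1 of 3 arrays, replicates 2 and 3 of miR-34c (adjusted p = 0.0642 and 0.0581) and replicate 3 of scramble (0.0555). Its neighbour and fellow proteoglycanase ADAMTS5 had a change of -0.06 ± 0.12 (SE), and ADAMTS4, ADAMTS8, ADAMTS9 and ADAMTS20 ran from -0.22 (ADAMTS20) to 0.15 (ADAMTS9).

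The procollagen proteinases trim the amino ends of fibrillar procollagens. ADAMTS3 had a change of -0.31 ± 0.09 (SE, limma adjusted p = 0.0541) with groups that did not overlap, and ADAMTS2 and ADAMTS14 had changes of 0.05 and 0.03. ADAMTS12, which cleaves cartilage oligomeric matrix protein, and ADAMTS13, which cleaves von Willebrand factor, had changes of 0.14 and 0.07. Of the remaining ADAMTS genes, ADAMTS16 and ADAMTS6 had the largest, 0.30 ± 0.09 and -0.28 ± 0.10 (SE, adjusted p = 0.0587 and 0.0805). Of the 15 other settings ADAMTS3 passed with 3, ADAMTS6 with 2 and ADAMTS16 with 6.

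The 4 inhibitors divided into 2 with higher and 2 with lower means. TIMP1, a broad MMP inhibitor, had values of 0.17, 0.18 and 0.099 with miR-34c and -0.099, -0.11 and -0.21 with scramble. All 3 miR-34c arrays were higher, and the change was 0.29 ± 0.08 (SE), or 1.22-fold (limma adjusted p = 0.0299). SYN1, which overlaps TIMP1 in the annotation, had a change of 0.03. The call was lost without miR-34c replicates 1, 2 or 3 (adjusted p = 0.0769, 0.104 and 0.073), scramble replicate 1 (0.0598) or scramble replicate 3 (0.0743).
TIMP1: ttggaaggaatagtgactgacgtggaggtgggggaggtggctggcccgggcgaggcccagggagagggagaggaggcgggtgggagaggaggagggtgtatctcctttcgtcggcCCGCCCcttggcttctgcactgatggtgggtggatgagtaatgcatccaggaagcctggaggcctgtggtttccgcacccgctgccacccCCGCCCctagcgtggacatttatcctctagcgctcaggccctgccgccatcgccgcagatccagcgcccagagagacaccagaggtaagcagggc
The window of TIMP1 (chrX:47582186-47582485, plus strand, RefSeq, GRCh38.p14) is shown as that of the inhibitor that passed, with its GC boxes, read on the opposite strand, in capitals 135 and 45 bases before the start.

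TIMP2, which also takes part in the activation of pro-MMP2 by MMP14, had values from -0.097 to -0.041 with miR-34c and from -0.36 to -0.23 with scramble. The groups did not overlap, but the change of 0.21 ± 0.07 (SE) did not pass (limma adjusted p = 0.0795); it passed with arrays centred on their median or quantile-normalized again. TIMP3, which is bound to the matrix and inhibits ADAM17, had a change of -0.28 ± 0.11 (SE, adjusted p = 0.11), and its other probe set one of -0.14 ± 0.10. TIMP4 had a change of -0.21 ± 0.09 (SE, adjusted p = 0.131) and passed without scramble replicate 3 (-0.29). The groups did not overlap in any of the 4 inhibitors, as in 34.2% of all genes, and TIMP1 was the one that passed.

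Genes that control or serve these proteases were read from lists of other genes. Of 19 measured regulators 3 fell and 2 rose (26.3%, against 15.7% of all genes), with a median change of 0.0061. RECK, a membrane inhibitor of MMPs and ADAM10, was at 0.712 of its scramble level, a fall by 0.49 ± 0.09 (SE; limma adjusted p = 0.00501). TSPAN5, a tetraspanin that escorts ADAM10 to the cell surface, fell to 0.734 of it. Of the urokinase system, which activates plasminogen and through it MMPs, PLAU rose 1.46-fold (0.55 ± 0.08, SE, adjusted p = 0.00214) while its receptor PLAUR fell to 0.762. Of the iRhoms, which ADAM17 needs for its maturation, RHBDF2 rose 1.26-fold, and RHBDF1 had a change of -0.24 and did not pass (limma adjusted p = 0.0847). Of these 2 rises 1 was left, PLAU, on leaving out replicate 2 or 3 of miR-34c or replicate 3 of scramble (limma adjusted p of RHBDF2 0.0837, 0.088 and 0.052). FURIN, which removes the propeptide of many members, had a change of -0.21 and did not pass (adjusted p = 0.1).

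Of 18 transcription factors known from MMP promoters 7 rose and 2 fell, 9 of 18 where 15.7% of all genes passed, with a median change of 0.09. JUNB rose by 0.93 ± 0.08 (SE) on the log2 scale and ELF3 by 0.82 ± 0.11, whereas FOSL1 and ETS1 fell to 0.716 and 0.727 of the scramble level. FOS, JUN and FOSB, the other subunits of AP-1 with the largest rises, were 1.89-fold, 1.85-fold and 1.78-fold higher. MMP1, a textbook AP-1 target, fell on the arrays on which these 4 AP-1 genes rose and FOSL1 fell. The arrays measure RNA and not AP-1 activity, and a link between these changes was not tested. JUND and ETS2 also rose. JUND was lost without miR-34c replicate 2 (limma adjusted p = 0.0537) or scramble replicate 1 (0.0521), and ETS2 without any array but scramble replicate 2 (0.0609 to 0.109).

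Proteins that members shed or cleave at the cell surface were read from the RNA of their genes. Of 29 such genes measured 6 fell and 4 rose (34.5%, against 15.7% of all genes), with a median change of 0.06. AXL, a receptor tyrosine kinase, fell to 0.586 of the scramble level, and the receptors MET and NOTCH2 to 0.703 and 0.654. Of the EGF receptor ligands, EPGN rose 1.81-fold (limma adjusted p = 0.000624), EGF 1.53-fold and TGFA 1.36-fold, while HBEGF had a change of 0.29 and did not pass. The fourth rise was CDH1, E-cadherin (1.32-fold), lost on leaving out replicate 1 or 3 of either group (limma adjusted p from 0.0635 to 0.102). With arrays centred on their median or quantile-normalized again, 8 genes of the list rose, and with array weights 7.

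Of 23 measured genes of matrix substrates 4 fell and 1 rose (21.7%, against 15.7% of all genes), with a median change of -0.05. TNC, tenascin-C, fell to 0.552, COL4A2, a chain of basement membrane collagen, to 0.59, and FN1, fibronectin, to 0.713 of the scramble level, and COL4A1 fell by 0.55 on the log2 scale. THBS1, thrombospondin-1, rose 1.41-fold (limma adjusted p = 0.00621). COL1A1, COL1A2 and COL3A1, fibrillar collagens that MMP1 cuts, had changes of -0.05, -0.10 and -0.19 and did not pass.

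**Figure D5:**
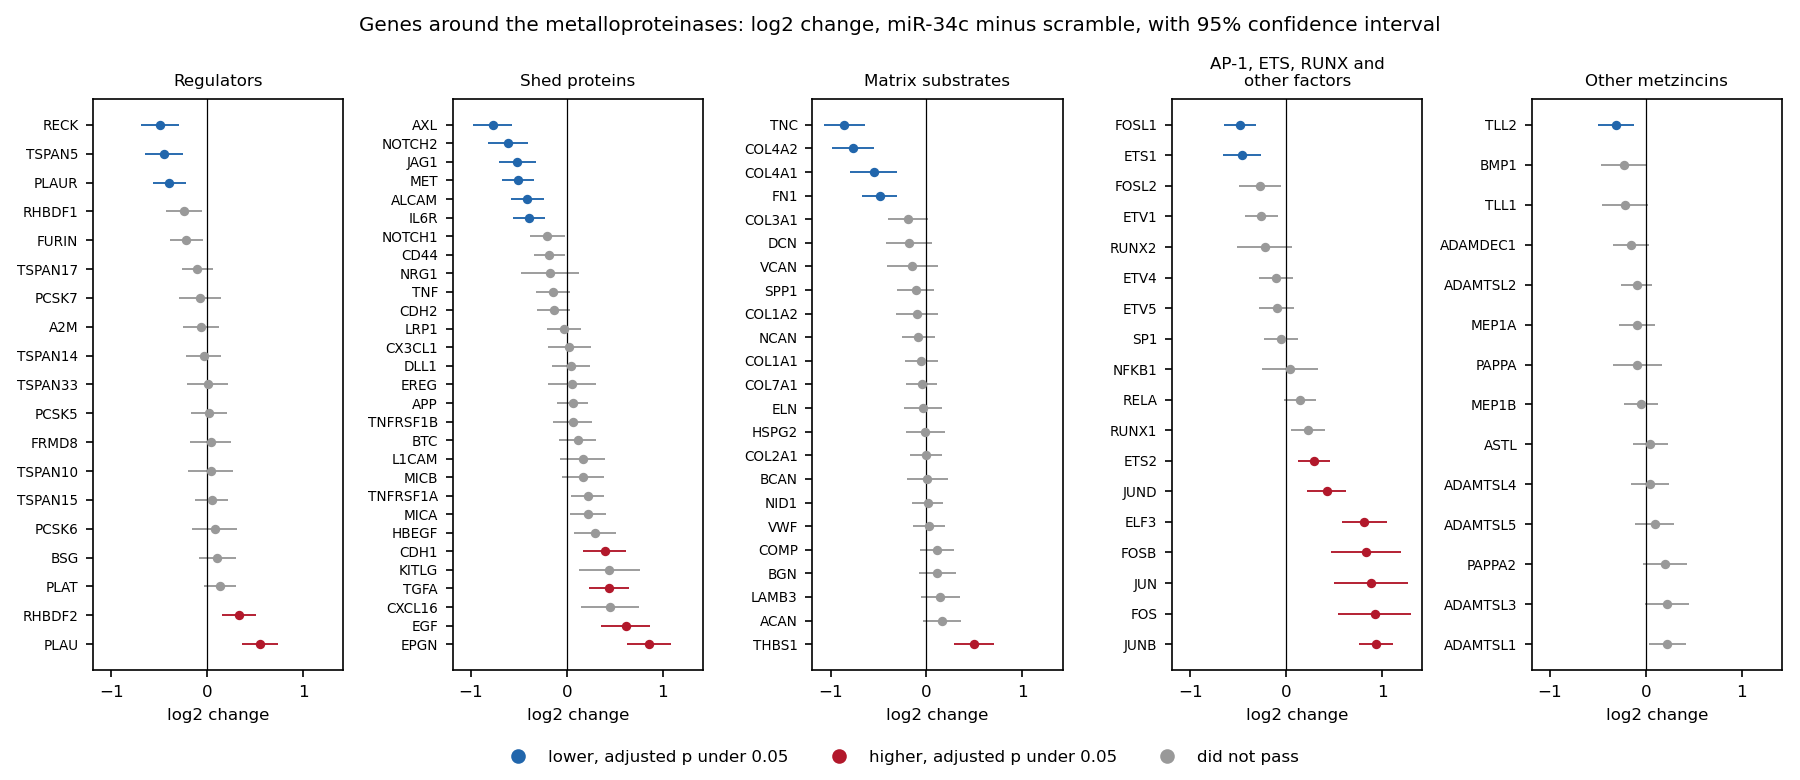
Log2 change (horizontal axis, with 95% confidence interval) of the genes of 5 lists around the metalloproteinases; blue and red points passed the test as lower and higher. The AP-1 genes JUNB, FOS, JUN and FOSB lie to the right at 0.83 to 0.93, while FOSL1 (-0.48), RECK (-0.49) and TNC (-0.86) lie to the left.

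Of 14 measured genes of related proteins outside the naming rule, such as BMP1, PAPPA and the ADAMTS-like proteins, 1 fell and 0 rose. That is 7.14%, against 15.7% of all genes. TLL2 fell by 0.31 (limma adjusted p = 0.0333), and 1 gene was higher at an unadjusted p under 0.05. Without miR-34c replicates 1 or 3 or any scramble replicate TLL2 did not pass (0.0559 to 0.153). Of markers of other cell types, 0 of 11 leukocyte genes passed (0 at an unadjusted limma p under 0.05). Of 11 fibroblast genes 1 fell, PDGFRA (-0.48), and of 9 endothelial genes 1 fell, PECAM1 (-1.17, or -0.74 with the mean of its probe sets). The shares that passed were 0%, 9.09% and 11.1%, against 15.7% of all genes. At an unadjusted p under 0.05, 3 fibroblast genes were lower and 1 higher, and 2 passed as lower without miR-34c replicate 1, without scramble replicate 2 or with array weights. With array weights, and also with the replicate block, 1 fibroblast gene passed as higher. Summed levels of these markers cannot be given from centred values, and their part in the changes of the members was not tested.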

How the data were processed

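Total RNA of PC3 cells, 100 ng per sample, was labelled with a whole-transcript kit and hybridised to Affymetrix arrays, per the labels' protocols. The values were made by RMA in Affymetrix Expression Console, per the submitters' processing notes, with no version or genome build stated. The deposited log2 values lie around 0 (array medians from -0.0303 to 0.0615), so each probe set has been set against some reference, by a step on which the sources are silent. The log base is taken from RMA. Such a reference cancels in the difference between groups, but brightness is unknown and dim probes could not be filtered. RMA quantile-normalizes the arrays. The medians of the deposited values still differ, which a reference subtracted from each probe set can produce, and the cause was not tested. The scaling alternatives show how far the calls depend on the scale and are not a correction.

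Of 28868 probe sets 19309 carry 1 gene symbol in the platform annotation and were used. For the 685 genes with several, the one whose mean over the 6 arrays was highest was kept, so that 18376 genes were tested. Because the values are centred, that mean does not mark the brighter probe set, and the choice is arbitrary in this respect. Of 95 matching symbols in the RefSeq gene table (GRCh38.p14) 66 were measured so, and 2 probe sets that carry more than 1 symbol were left out. The fit was limma 3.58.1 in R 4.3.3 (lmFit, then eBayes, its prior variance following the mean) with no term but the group and a Benjamini-Hochberg threshold of 0.05. It was tested on simulated data.

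Arrays of one group correlated at 0.773 to 0.875 and arrays of different groups at 0.557 to 0.699, the highest of the latter being that of miR-34c replicate 1 with scramble replicate 3. The members and lists were chosen with earlier results of these data known, and the grouping of the ADAM genes by activity and testis expression was made after their values were seen. Named were all members past the threshold, 11 members taken for their known roles or earlier results, the 6 with the largest changes among the others, the neighbours of MMP1, and up to 4 genes of each list by adjusted p; other genes named were chosen after their values were seen. Promoter windows were searched for letter patterns only. The 15 other settings were a block for the replicate number, 2 other eBayes priors (no trend, robust), 2 other scalings, array weights, 3 other choices of probe sets or genes, and leaving out each of the 6 arrays.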

Additional observations from a re-analysis of the deposited data

How the results depend on the processing

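Of 24 named members under the 15 other settings, 355 of 358 values kept their direction and 300 kept both their direction and their side of the threshold. The 3 that reversed were of members near 0. Leaving out 1 array gave MMP3 changes from -0.0432 to 0.135, negative when miR-34c replicate 1 (-0.03) or scramble replicate 1 was the array left out, and MMP9 changes from -0.0743, when scramble replicate 2 was left out, to 0.164. The count of members higher with miR-34c was 7, in place of 4, with arrays centred on their median and also 7 with quantile normalization again. The count of all higher genes was 1830 and 1876 there, in place of 1409. The cause was not tested. When 1 array was left out, the count of higher members lay between 0 and 4 and that of lower members between 3 and 9. The count of all higher genes lay between 841 and 1572 and that of all lower genes between 758 and 1373. These fits have fewer arrays. The replicate numbers did not pair the arrays (correlations of same-numbered deviations -0.00507, 0.118 and -0.0852), and with the replicate block 6 members were lower and 4 higher, 9 of the 10 the same genes, with ADAM11 lost and ADAMTS16 gained, and of the transcription factors ETS2 was lost (limma adjusted p = 0.0522), which left 6 rises. No filter on dim probes was possible, because the centred values hold no signal over background.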
